A study of Drosophila melanogaster with 18 samples.

Results

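The terminal and gut genes of the early Drosophila embryo were followed through mitosis in lists of chromatin regions called for the GAGA factor (GAF) and for H4K8ac, the acetylation of histone H4 at lysine 8. They were 6 of the 13968 protein-coding genes of the annotation: tailless (tll), huckebein (hkb), fork head (fkh), brachyenteron (byn), caudal (cad) and serpent (srp). A peak was assigned to a gene when it overlapped the gene body in dm6 or lay within 5 kb of it. The embryos were wild type of the yw strain, 1 to 2.5 h after egg laying by their labels, fixed and stained for phosphorylated serine 10 of histone H3, a mark of mitotic chromatin, and sorted into interphase and mitotic pools of 1000 embryos per sample. GAF was immunoprecipitated in 3 interphase and 2 mitotic samples and H4K8ac in 2 samples of each stage, each with an input sample. All samples are whole embryos, so a peak does not say whether it comes from the nuclei at the poles, where most of these genes are transcribed, or from the rest of the embryo. The deposited lists hold peaks called on the mean of the replicates, as positions with no score or read count. They give no spread between replicates and no depth for a single peak, so no test between the stages was possible and the values below describe these lists.

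The ends of the embryo are specified by the receptor tyrosine kinase Torso, which is activated at both poles and relieves repression by Capicua. The first zygotic targets are tll, which codes for an orphan nuclear receptor, and hkb, which codes for a zinc finger protein needed for the endoderm. Downstream and beside them, the FoxA factor of fkh acts in foregut and hindgut, the Brachyury-type T-box factor of byn in the hindgut, the GATA factor of srp in the endoderm, fat body and blood, and the homeodomain factor of cad in the posterior body. GAF is a zinc finger protein that binds repeats of GAGAG, and H4K8ac is an acetylation found with active chromatin.

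The interphase list held a GAF peak at all 6 genes, 9 peaks in all, against 37.5% of protein-coding genes with such a peak. Mitotic GAF was found at tll and srp alone among the 6, with 1 peak each. An interphase peak that overlaps a mitotic peak by at least 1 bp is called mitotically retained here, and any other is interphase-only. By this rule 2 of the 9 peaks were retained, against 31.2% of all 4970 interphase peaks, and 2 of the 6 genes had a retained peak, against 42.8% of the protein-coding genes with GAF nearby. Neither share is far from its background for so few peaks and genes. The peaks at hkb, fkh, byn and cad were interphase-only.

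**Figure D1:**
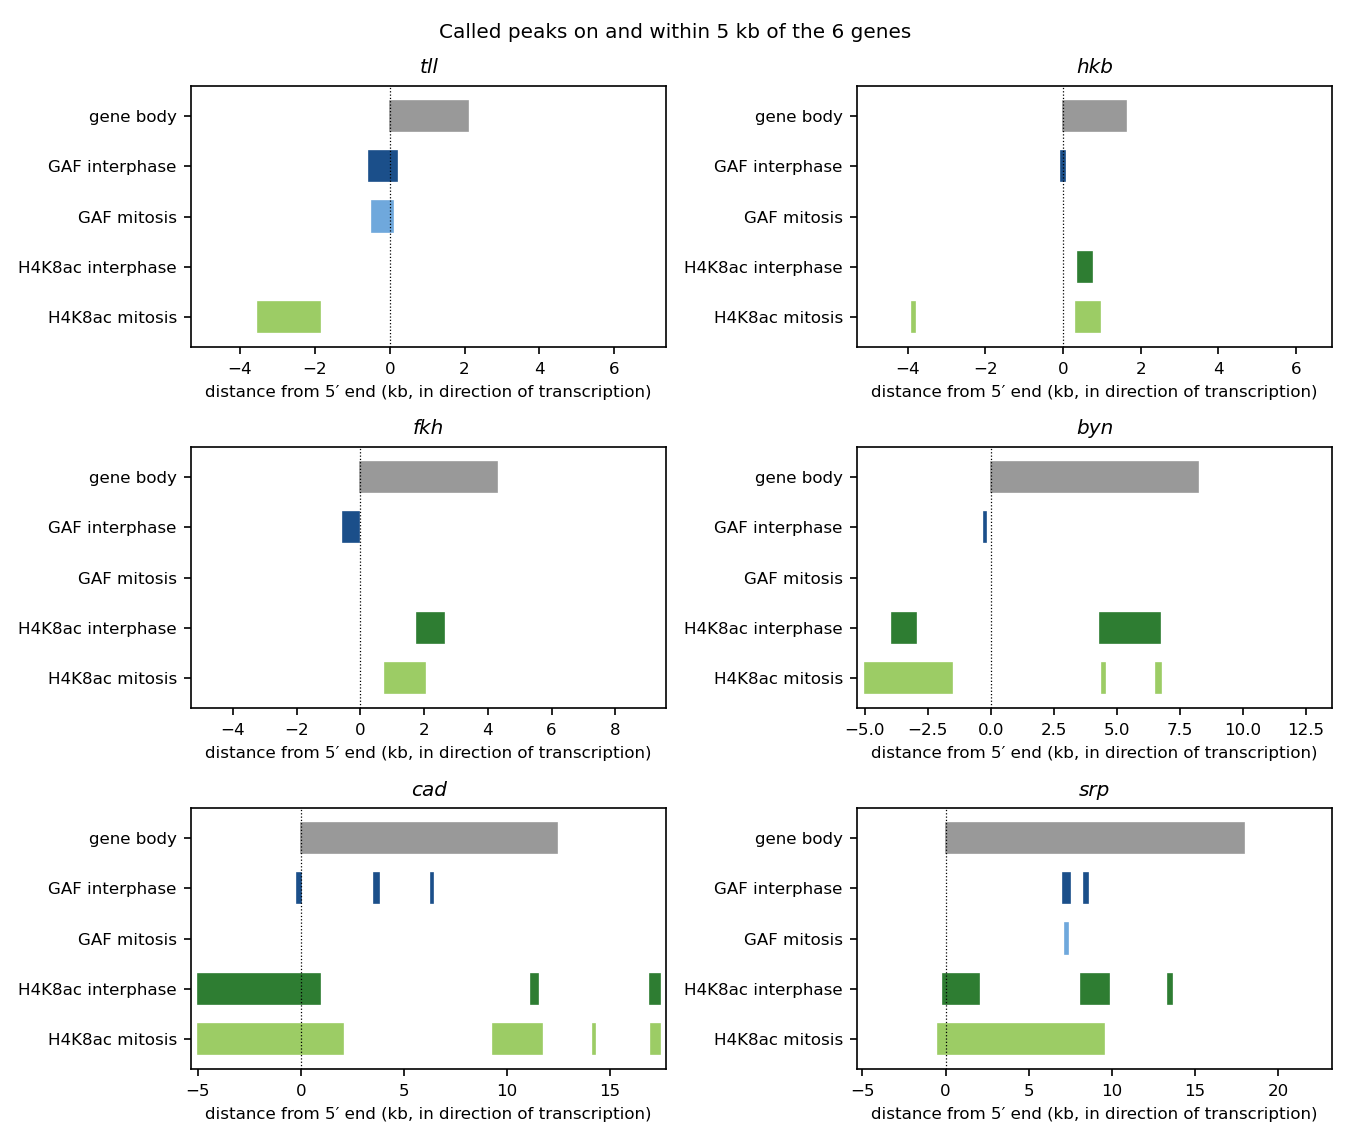
Called peaks at the 6 genes, with the distance from the 5′ end of each gene in kb on the x axis and 1 row for the gene body and for each of the 4 peak lists. A mitotic GAF peak is drawn at tll and srp only, while mitotic H4K8ac is drawn at all 6 genes.

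Motif counts in the text were made over whole peaks, or over 400 bp around a peak's centre where stated. The stretches below show part of that sequence, so a counted motif can be missing from them. They are read from the RefSeq copy of dm6 on its plus strand, 5′ to 3′, and leave out annotated untranslated regions, except at srp, where the 30 bases lie in one. The stretches of tll, srp, fkh and cad lie inside the GAF peaks. Those of byn and hkb are taken from the 400 bp around the centre of a peak of 100 bp and reach beyond it. At byn 1 of the marked GAGAG motifs lies in the peak, and at hkb the first, while the marked Zelda and Capicua words lie outside. Capitals mark GAGAG or its reverse complement CTCTC, and in the stretches at tll, hkb and byn also the Zelda word CAGGTAG and the Capicua word TGAATGAA on either strand. Zelda is the zinc finger pioneer factor of the early embryo.
tll, retained, chr3R:30852033-30852232: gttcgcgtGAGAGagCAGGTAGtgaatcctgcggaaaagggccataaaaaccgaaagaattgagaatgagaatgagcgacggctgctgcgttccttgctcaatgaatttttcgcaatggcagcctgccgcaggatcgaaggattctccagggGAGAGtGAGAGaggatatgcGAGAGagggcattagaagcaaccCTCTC
srp, retained, chr3R:15993406-15993435: aaggaaGAGAGgagccaaaGAGAGggatcc
fkh, interphase-only, chr3R:28585556-28585755: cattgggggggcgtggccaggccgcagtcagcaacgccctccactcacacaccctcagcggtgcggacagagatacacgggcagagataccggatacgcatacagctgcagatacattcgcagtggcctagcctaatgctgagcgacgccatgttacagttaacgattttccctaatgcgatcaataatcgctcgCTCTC
byn, around an interphase-only peak, chr3L:11927340-11927539: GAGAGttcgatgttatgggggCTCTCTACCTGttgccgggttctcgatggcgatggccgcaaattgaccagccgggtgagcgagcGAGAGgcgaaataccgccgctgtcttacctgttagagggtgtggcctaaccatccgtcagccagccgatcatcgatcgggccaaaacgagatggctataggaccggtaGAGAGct
hkb, around an interphase-only peak, chr3R:4346648-4346847: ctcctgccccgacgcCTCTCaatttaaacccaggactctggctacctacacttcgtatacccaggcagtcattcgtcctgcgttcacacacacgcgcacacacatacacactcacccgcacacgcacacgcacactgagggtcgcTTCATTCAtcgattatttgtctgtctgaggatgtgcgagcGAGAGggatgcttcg
cad intron, interphase-only, chr2L:20774301-20774500: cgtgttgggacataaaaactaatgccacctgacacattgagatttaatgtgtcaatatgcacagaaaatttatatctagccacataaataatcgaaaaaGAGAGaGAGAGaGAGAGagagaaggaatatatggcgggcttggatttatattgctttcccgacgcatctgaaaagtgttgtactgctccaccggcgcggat

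At tll (FBgn0003720, plus strand of chromosome 3R, 30852315 to 30854400), the interphase GAF peak ran from 30851751 to 30852501 and spanned the transcription start site (TSS). It was 750 bp long and reached from -564 to 186 bp, the last 186 bp being 5′ untranslated region. The mitotic peak, from 30851851 to 30852401, had the same centre and covered 73.3% of the interphase peak. All 6 GAGAG motifs of the interphase peak lay in the mitotic peak too. Their first bases lay at -308, -274, -130, -124, -110 and -87 bp, so all were upstream of the TSS, and those at -130, -124 and -110 bp stood closest together. The Zelda word, at -267 bp, followed the motif at -274 bp after a spacer of 2 letters (GAGAGagCAGGTAG) and lay in both peaks. Among all interphase GAF peaks of 750 bp, 7.46% held this word, and tll was the only one of the 9 peaks at the members to hold it. Of all peaks of that length 79.1% were retained, and of all peaks with 6 motifs 51.6% were, so tll stood with the majority on both counts.

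At srp (FBgn0003507, plus strand of chromosome 3R, 15986152 to 16004085), both GAF peaks lay inside the gene. The first, from 15993201 to 15993651, was 450 bp long and centred 7274 bp downstream of the 5′ end. Of its length 250 bp were annotated as 5′ untranslated region and 200 bp as intron, and it also overlapped the noncoding gene lncRNA:CR44133. The mitotic peak, from 15993351 to 15993501, was 150 bp long and again shared the centre of the interphase peak, of which it covered 33.3%. It held 2 of the 3 GAGAG motifs, the pair shown above, 8 letters apart. Peaks of 450 bp were retained in 24.6% of cases in the whole list and peaks with 3 motifs in 17.6%, so at srp retention was the less common outcome.

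The other srp peak, from 15994451 to 15994701, lay 950 bp from the mitotic peak in coding sequence and was interphase-only. It was 250 bp long with 1 GAGAG motif. In the whole list 1.14% of the peaks of this length were retained. The 4 annotated TSSs of srp lay at 0, 6282, 7988 and 12937 bp from its 5′ end, and none was in a GAF peak. The start at 7988 bp lay between both peaks, 490 bp from the retained one and 311 bp from the other. The 5′ end itself was 7049 bp from GAF.

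At fkh (FBgn0000659, minus strand of chromosome 3R, 28580976 to 28585264), the interphase GAF peak from 28585301 to 28585801 ended 37 bp upstream of the 5′ end. With 500 bp it was the second longest at the members, and 48.7% of all peaks of that length were retained. It held 1 GAGAG motif, at -491 bp near its far edge, while the median was 4 motifs over all peaks of 500 bp and 5.09% of them held 0 or 1. Of the 10 peaks of that length with exactly 1 motif, 3 were retained. The nearest mitotic GAF peak lay 48750 bp away. In the list of retained peaks that the authors deposited, in which the peaks at these genes are each 100 bp longer, a peak from 28585251 to 28585851 covers the same place. That list holds 3 of the 9 peaks at the members (tll, fkh and the first of srp) and meets 50.5% of all interphase peaks, so the state of fkh in mitosis depends on the list. Of all peaks of 500 bp, 86.2% meet that list.

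At byn (FBgn0011723, plus strand of chromosome 3L, 11927693 to 11935919), the GAF peak from 11927401 to 11927501 was 100 bp long, among the shortest in the list, and reached from -292 to -192 bp. It held 1 GAGAG motif. The 400 bp around its centre held 6, as many as at tll, whereas 2.33% of all peaks of 100 bp reached 6 in such a window and their median was 2. A Zelda word lay at -328 bp, outside the called peak, and shared a base with one of these motifs (CTCTCTACCTG). The nearest mitotic GAF peak lay 105200 bp away, and 6.12% of all peaks of 100 bp were retained. Of the 82 peaks of that length with exactly 1 motif, 0 were retained. The peak also lies within CG44837, a gene on the other strand whose body spans byn.

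At hkb (FBgn0261434, minus strand of chromosome 3R, 4345015 to 4346646), the GAF peak from 4346601 to 4346701 was likewise 100 bp long and lay on the TSS, with 46 bp in the 5′ untranslated region. Of its 2 GAGAG motifs, on the gene's strand, the first bases lay at -21 and -4 bp, and both read GAGAG on the strand of the gene. The 400 bp around the centre held 4 motifs, a number reached by 25.1% of the peaks of this length. The nearest mitotic GAF peak lay 14250 bp away. The Capicua word occurred 6 times within 5 kb of hkb, at -2116, -1771, -1742, -154, 1928 and 3127 bp, and none of these was in a GAF or an H4K8ac peak. Those peaks cover little of the window of hkb: GAF 0.86%, and H4K8ac 3.01% in interphase and 6.02% in mitosis. Among the 3613 windows whose length was within 500 bp of that of hkb, itself included, 53.1% held the word at least once and 4 held it at least 6 times. The exact word was absent from the window of tll, which says only that these letters are not there. The tll stretch shown above holds TCAATGAA, which differs from the word in the second letter. This variant was not searched for, so its number at the members and its share over all peaks are not known. No GAF peak at the members held TGAATGAA, against 4.33% of all interphase peaks. That share depends on length, with 0.583% for peaks of 100 bp, 0.891% for 200 bp and 5.97% for 750 bp.

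At cad (FBgn0000251, plus strand of chromosome 2L, 20770731 to 20783135), 3 GAF peaks were called in interphase and none in mitosis. The peak from 20770551 to 20770751 lay on the 5′ end with 1 GAGAG motif at -64 bp. The other peaks were intronic, from 20774301 to 20774501 with 3 motifs and from 20777051 to 20777151 with 2. In the first intronic peak the motifs stood in an unbroken GA repeat of 23 bp, the longest in any peak at the members, which held 9 motifs when overlapping matches were counted. At 200, 200 and 100 bp, the peaks at cad belonged to lengths with 1.34% and 6.12% of peaks retained in the whole list. Among peaks of the same length and motif number, 0 of 69, 0 of 108 and 0 of 102 were retained. The mitotic GAF peak nearest to any of them was 44550 bp away.

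Over the members, the 2 retained peaks were 750 and 450 bp long with 6 and 3 motifs, and the 7 interphase-only peaks ranged from 100 to 500 bp with 1 to 3 motifs. Both measures overlapped between the classes, since fkh was longer than the retained peak of srp and an intronic cad peak had as many motifs. The mean was 4.5 motifs in the retained and 1.57 in the interphase-only peaks, a difference of 2.93 over 9 peaks. Over the whole interphase list the means were 6.37 and 3.39, so the difference at the members is close to that of all peaks. Per length the classes at the members were alike, at 7.50 and 7.59 motifs per kb. In the whole list the retained peaks had fewer per kb, at 8 against 10.4. The members' peaks were short as a group, with a median of 200 bp and 2 motifs, against 400 bp and 4 motifs over all interphase peaks. Each of the 9 peaks held at least 1 motif, as did 96.7% of all. They took up 2.49% of the sequence of the 6 windows and held 20 of its 156 GAGAG motifs (12.8%).

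**Figure D2:**
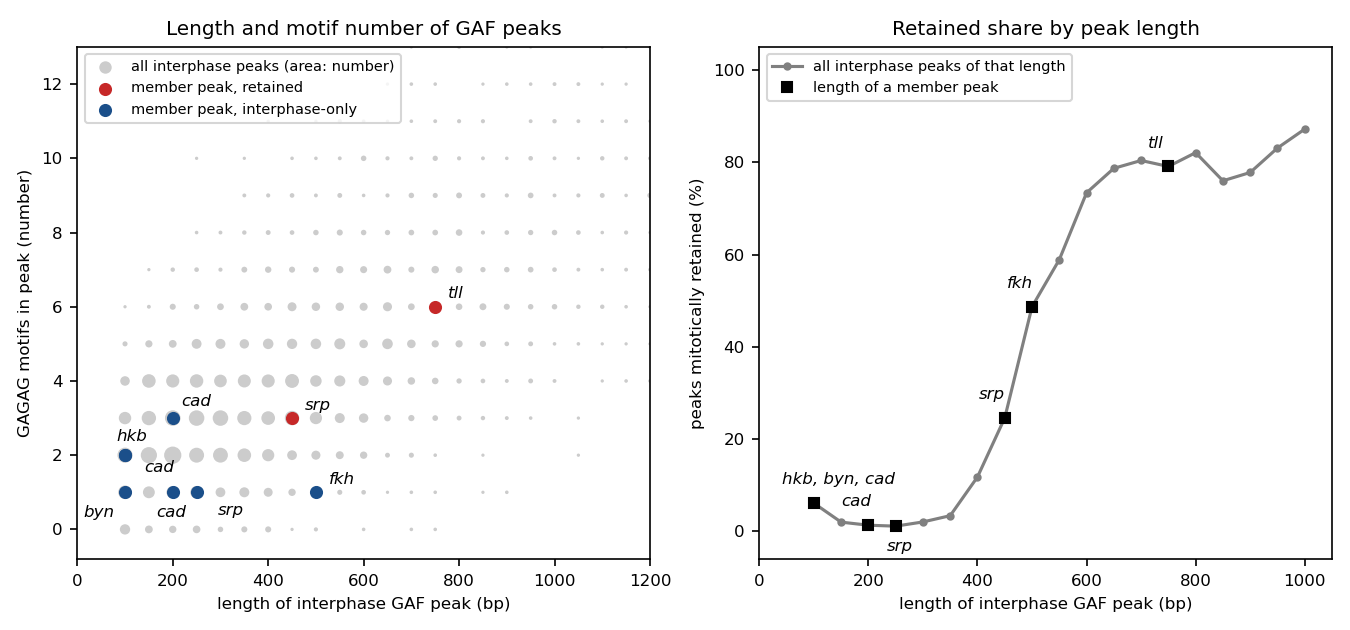
Left, length in bp and number of GAGAG motifs of the interphase GAF peaks (grey, area by number of peaks, with longer or richer peaks beyond the axes) and of the 9 peaks at the members, retained in red and interphase-only in blue. Right, the percentage of all interphase peaks of a given length that were retained, for lengths up to 1000 bp, with the lengths of the members’ peaks as squares: 79.1% at the length of tll, 24.6% at that of the retained srp peak and 6.12% at that of hkb and byn. The 21 retained peaks of 100 bp all had 0 GAGAG motifs, unlike the peaks of hkb and byn.

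Of the 9 peaks, 4 lay within 100 bp of an annotated TSS (tll, hkb, fkh and the first of cad), against 43.0% of all interphase peaks. The TSS itself was inside the peak at tll, hkb and cad. Of these 4 promoter peaks 1 was retained, at tll, and the retained peak of srp lay inside the gene.

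**Figure D3:**
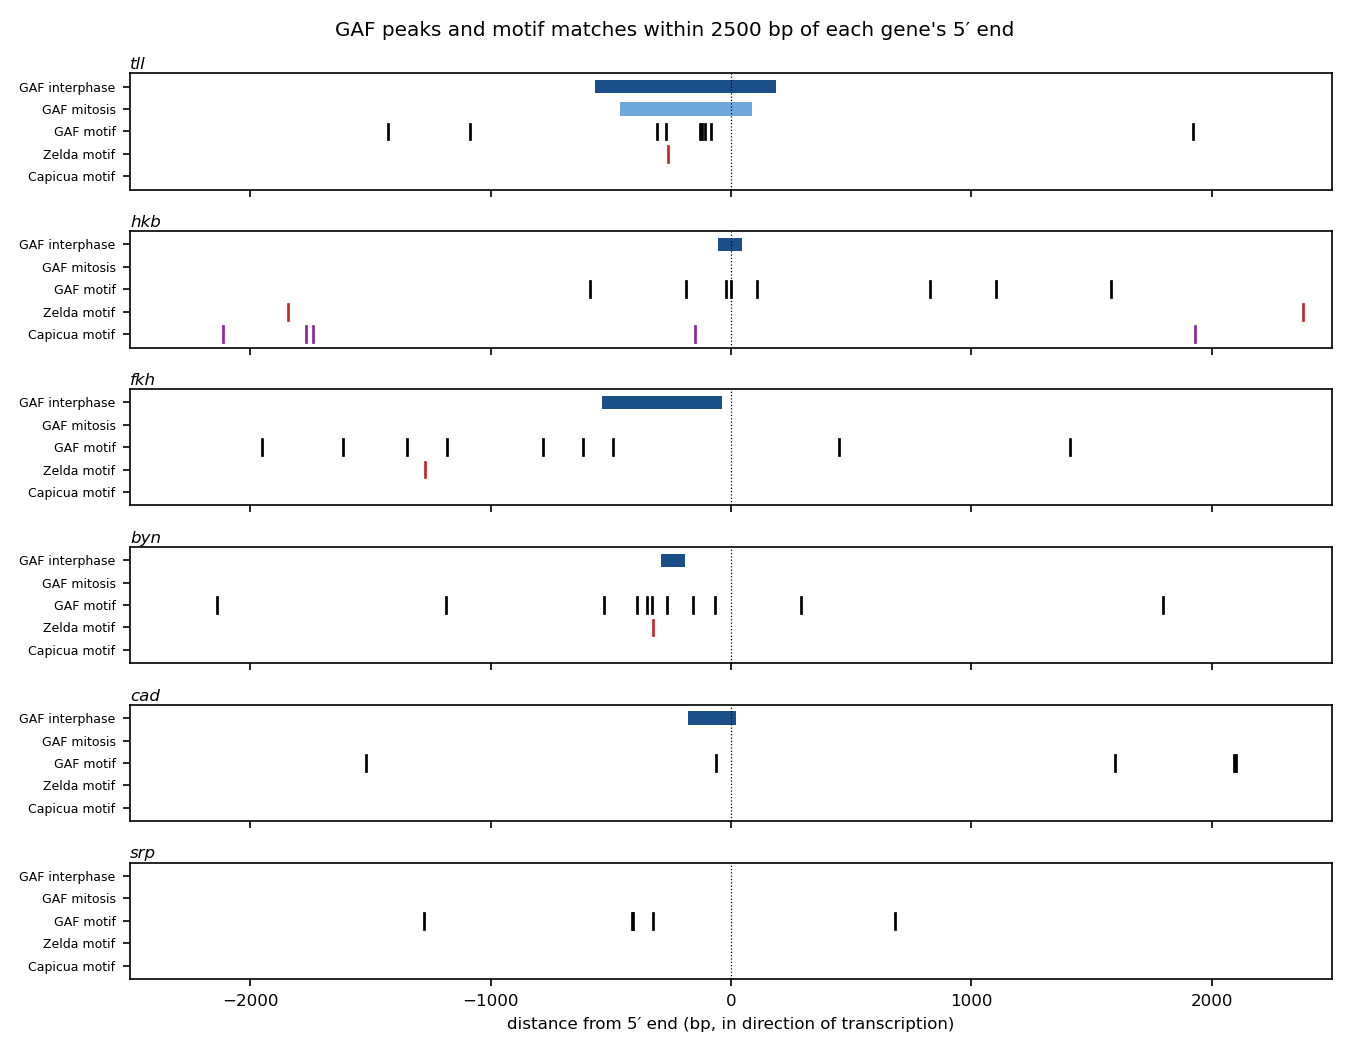
GAF peaks of both stages and matches to the GAF, Zelda and Capicua words (ticks) around each 5′ end, in bp along the direction of transcription. At tll the 6 GAF motifs and the Zelda word lie under both peaks, at byn a group of GAF motifs extends beyond a peak of 100 bp, and the peaks of srp lie beyond the plotted range.

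Overlap with a mitotic peak was more common for H4K8ac than for GAF in the whole lists, at 74.0% and 31.2% of interphase peaks. The peaks at the members followed the same order. A mitotic H4K8ac peak lay at all 6 genes, against 72.3% of protein-coding genes, and an interphase one at 5, all but tll, against 74.6%. The lists held 10 interphase and 12 mitotic H4K8ac peaks at the members. Of the interphase peaks 9 overlapped a mitotic one, against 74.0% in the whole list, and of the mitotic peaks 9 overlapped an interphase one, against 78.3%. None of these shares is far from its background for so few genes and peaks. In each of the 6 windows more sequence lay in mitotic than in interphase H4K8ac peaks, while this held for 32.1% of the protein-coding genes with any H4K8ac within 5 kb. Over the gene bodies alone it held for 4 of the 5 members with H4K8ac there, against 29.1% of all protein-coding genes with H4K8ac in the gene body. Neighbouring H4K8ac peaks were at least 2000 bp apart in both lists, so a long peak can contain unacetylated stretches shorter than that.

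The largest difference was at srp, with 4050 bp in interphase and 10000 bp in mitosis. A single mitotic peak from 15985701 to 15995701 ran from the 5′ end over both GAF peaks. It and the interphase peak at the 5′ end also covered the start of lncRNA:CR44133. In interphase the same stretch held a peak at the 5′ end, from 15986001 to 15988151, and another from 15994301 to 15995951, which covered the second GAF peak but ended 650 bp short of the retained one. A further interphase peak, from 15999501 to 15999751, had no mitotic partner. The retained GAF peak of srp was thus outside the H4K8ac peaks of interphase and inside the long one of mitosis. A peak of that length can contain unacetylated stretches, so acetylation at the GAF peak itself is not shown. This GAF peak was the only retained one at the members that lay in a mitotic H4K8ac peak.

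At cad 6755 bp of the window lay in interphase and 9955 bp in mitotic H4K8ac. The peak over the 5′ end reached from 20763601 to 20771651 in interphase and from 20756951 to 20772801 in mitosis. In both stages it overlapped dia, the upstream neighbour, and in mitosis it also overlapped Rhau and covered the starts of dia and Rhau, so the share that belongs to cad cannot be told apart. A peak in the 3′ part of cad was 350 bp long in interphase and 2350 bp in mitosis, from 20780051 to 20782401. Beyond the 3′ end, a mitotic peak of 100 bp lay at 20784901 to 20785001, and a peak at the start of Pomp, the downstream neighbour, was 650 bp long in interphase (20787651 to 20788301) and 550 bp in mitosis (20787701 to 20788251). The first GAF peak of cad lay in the long H4K8ac peak over the 5′ end in both stages, while the intronic ones lay outside any H4K8ac peak in both.

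At tll no interphase H4K8ac peak was called within 5 kb, the nearest being 11064 bp from the TSS. The mitotic list held a peak of 1650 bp from 30848801 to 30850451, which spanned -3514 to -1864 bp. It did not touch the retained GAF peak, which was 1300 bp from it. At hkb a peak inside the gene was 350 bp long in interphase and 600 bp in mitosis, 350 and 300 bp from the GAF peak. A second mitotic peak of 100 bp lay 3805 bp upstream. At fkh the peaks of both stages lay in the coding sequence and shared 250 bp, and 370 bp of the interphase one were also annotated as 3′ untranslated region. The mitotic one, from 28583251 to 28584501, was the closer to the 5′ end, at 763 bp against 1763 bp.

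At byn the windows of both stages were close, with 3350 bp in interphase and 3758 bp in mitosis, but the position differed. Inside the gene an interphase peak from 11932001 to 11934401 faced 2 mitotic peaks of 100 and 200 bp, so 29.2% of the gene body was covered in interphase and 3.65% in mitosis. Upstream, 950 bp in interphase stood against a mitotic peak of 5250 bp from 11920901 to 11926151, which also covered the starts of SdhAL and CG11588. The gene body of byn was the only one of the 6 to have less H4K8ac in mitosis.

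**Figure D4:**
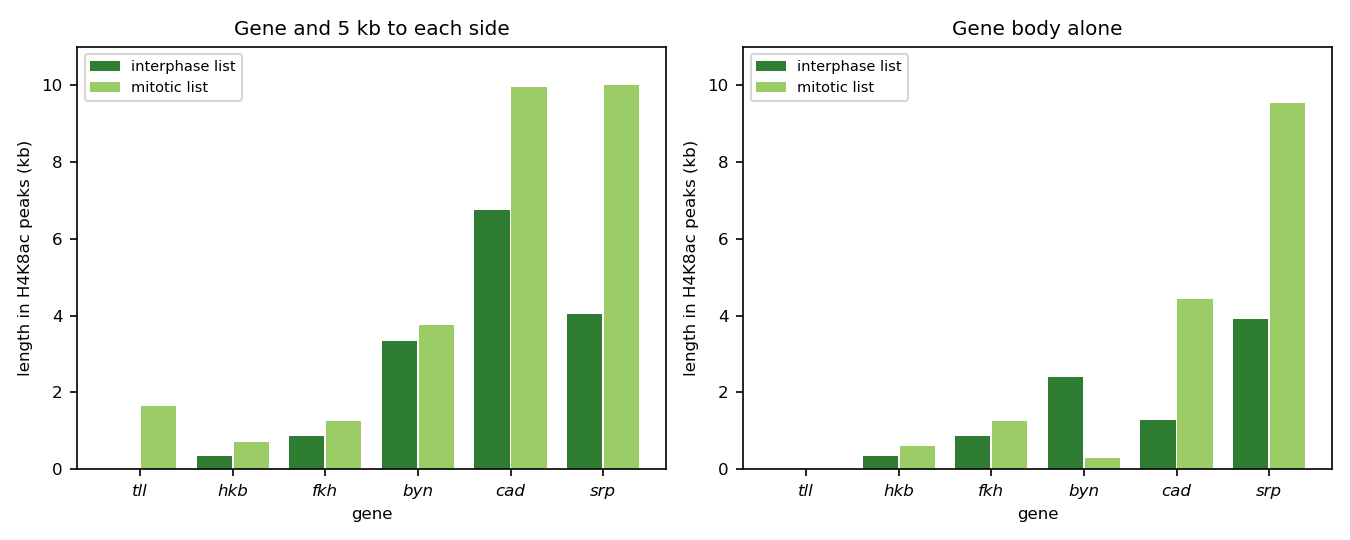
Length of sequence in H4K8ac peaks (kb) in the interphase list (dark) and the mitotic list (light) for each gene, with 5 kb to each side on the left and in the gene body alone on the right. In the wider windows all 6 genes have the higher bar in mitosis, and in the gene body byn has 2400 bp in interphase and 300 bp in mitosis.

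Of the 9 GAF peaks at the members, 2 overlapped interphase H4K8ac (23.1% of all interphase GAF peaks) and 3 overlapped mitotic H4K8ac (25.2%). These were the first peak of cad and the interphase-only peak of srp in both stages, and the retained peak of srp in mitosis. The peaks of tll, hkb, fkh and byn lay outside the called H4K8ac peaks of both stages, at 1300, 300, 800 and 1250 bp from the nearest mitotic one. Without signal values in the lists, this does not show that acetylation is absent there. Interphase H4K8ac lay at 10500, 350, 1800 and 2700 bp from them, so at hkb the distances of the stages differed by a single bin of 50 bp. With the intronic peaks of cad, 6 GAF peaks lay outside the called H4K8ac peaks of both stages. Of these, 6 of 6 were nearer to mitotic than to interphase H4K8ac, against 45.7% of all such interphase GAF peaks. The same H4K8ac peaks gave the larger mitotic coverage of these windows, so the results are not independent.

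The genes around the members in the terminal pathway were given as counts. Of 13 Torso pathway genes (tor, tsl, trk, ksr, Raf, Ras85D, Dsor1, rl, csw, drk, Sos, cic and gro), 7 had an interphase GAF peak within 5 kb (37.5% of all protein-coding genes) and 4 of these 7 a retained one (42.8% of those with GAF). Interphase H4K8ac was at 11 of them (74.6% of all) and mitotic H4K8ac at 12 (72.3%). The receptor gene tor had none of these peaks, and the genes tsl and trk, whose products are needed to activate it, had H4K8ac but no GAF. The longest retained peaks were at cic, the gene of the repressor Capicua, with 1450 bp and 15 GAGAG motifs (20252901 to 20254351 on chromosome 3R), and at the kinase gene Raf, with 1000 bp at 2295701 to 2296701 and at 2303601 to 2304601 on chromosome X. The peak at cic was thus longer and richer in motifs than any at the 6 members.

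Of 11 other genes of gut development (otp, drm, lin, bowl, GATAe, dve, fog, mthl1, bap, bin and grn), 8 had an interphase GAF peak, against the same 37.5%, and 6 of these 8 a retained one, against 42.8%. Interphase and mitotic H4K8ac were at 8 genes each, against 74.6% and 72.3%. The longest retained peaks were at dve, a homeobox gene of the midgut, with 2400 bp and 19 motifs, and at drm, a zinc finger gene of the hindgut and foregut, with 1750 bp and 10 motifs, followed by another of 800 bp and 9 motifs at dve. GATAe, which follows srp in the endoderm and lies downstream of it on chromosome 3R, had no GAF peak within 5 kb.

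The pattern over the 4 lists was also compared with 13929 protein-coding genes more than 20 kb from the members, as the sum of the absolute differences in covered bp. The gene closest to tll was mid, which codes for a T-box factor, with 750 bp of interphase GAF, 400 bp of mitotic GAF, no interphase and 1500 bp of mitotic H4K8ac, a sum of 300 bp. The closest gene to fkh was CG17267 (200 bp), to hkb CG40485 (150 bp), to byn CG2100 (158 bp), to cad CG1737 (610 bp) and to srp toy (874 bp). CG40485 and CG2100 had no GAF peak at all, so they match hkb and byn by acetylation only, and toy had no mitotic GAF.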

How the data were processed

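ChIP-seq of GAF and H4K8ac was performed on sorted interphase and mitotic embryos, with 18 samples including inputs. Per the methods, the authors trimmed reads with Cutadapt 1.16, mapped them to dm6 with Bowtie2, averaged the coverage in bins of 50 bp with PASHA, scaled it to RPM, subtracted the input, averaged the replicates and called peaks on this mean, with a threshold of 100 for GAF and 22 for H4K8ac. The deposited lists give peak start and end in bp, with no score, no signal and no fold. A threshold on a mean makes peak number and length depend on signal strength, which in GAF was averaged over unequal numbers of samples. Bins begin at base 1, so a peak was read from its start to the base before its end.

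Peaks were intersected with the Ensembl release 115 annotation of dm6 and with each other (at least 1 bp) in Python 3.11.15. Figures were drawn with Matplotlib 3.10.9. GAGAG was counted on both strands without overlap. Overlap and motif steps were tested on simulated data. The members, the rule, the gene lists and the named genes (all members with all their peaks, the genes those peaks overlap, the closest gene to each member, the 3 longest retained peaks of each list) were chosen with earlier results of these data known. Alternatives were other distances, overlaps, lengths, counting rules and the list of retained peaks deposited by the authors.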

Additional observations from a re-analysis of the deposited data

How the results depend on the processing

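Of 30 alternative values, 25 stayed within 1.5 times of the reported count, or within 1 SD for the GAGAG difference between the classes. That SD, 1.64, is over the 9 peaks at the members. A change of exactly 1.5 times, from 2 to 3 or from 6 to 4, counted as within. With GAF peaks of at least 400 bp, the 9 peaks at the members fell to 3 (tll, fkh and srp). With an overlap of at least 50% of both peaks, 1 peak and 1 member (tll) were retained in place of 2, and 0 members had a retained peak in mitotic H4K8ac in place of 1. With H4K8ac peaks of at least 1000 bp, 3 members had one in interphase in place of 5. With the authors' list of retained peaks, 3 members had one, fkh being added. More H4K8ac in mitosis than in interphase held for 6 members within 5 or 10 kb and for 4 within 1 kb or in the gene body alone, alternatives chosen after seeing the data. The length minimums and shorter windows keep fewer peaks or bases by construction, and the overlap rule is stricter. The cause of the difference at fkh was not tested. Within 10 kb the 1 GAF peak added was interphase-only, 100 bp long without a GAGAG motif, near hkb. No paired analysis was possible because the lists pool the replicates, and leaving out a replicate was not possible for the same reason. Depth behind a single peak is not given in the lists.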
